A study of Mus musculus with 468 samples.

Results

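The 10 genes described here were chosen by name as genes of the hypoxia response and of glycolysis: Hif1a, Egln3, Slc2a1, Hk2, Pfkfb3, Pfkp, Pgk1, Ldha, Pdk1 and Bnip3. They were 10 of the 23180 genes counted in the adipose tissue libraries, and all 10 were among the 18380 genes kept by a filter of 10 or more counts in 50% or more of the libraries. Each library came from 1 Diversity Outbred (DO) mouse, an outbred stock in which the genomes of inbred founder strains are mixed so that nearly every animal has its own genotype. The labels put every mouse on a diet of 45 percent fat, a high-fat, high-sugar (HFHS) diet, and give no lean or chow-fed control, no sex, no age and no batch. The methods of the study describe animals of both sexes that were killed as adults, with the adipose tissue taken from the gonadal fat pad. All libraries therefore formed 1 group, and the questions put to the data were how the 10 transcripts varied between mice, how they varied together, and how they related to Lep, Adgre1 and Vegfa.

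Cells that lack oxygen stabilise the transcription factor HIF-1, whose alpha subunit is encoded by Hif1a. In the presence of oxygen, prolyl hydroxylases such as the product of Egln3 mark the alpha subunit for destruction, so that regulation acts largely on the protein rather than on the transcript, while Egln3 itself is a classical HIF target. The other genes act downstream. Slc2a1 encodes the glucose transporter GLUT1, Hk2 hexokinase 2, Pfkfb3 the enzyme that makes the allosteric activator of phosphofructokinase, Pfkp the platelet-type phosphofructokinase, Pgk1 phosphoglycerate kinase 1 and Ldha the A subunit of lactate dehydrogenase. Pdk1 encodes a kinase that inhibits pyruvate dehydrogenase, and Bnip3 encodes a mitochondrial outer membrane protein that takes part in mitophagy. Lep, which encodes leptin, is made by adipocytes and rises with adiposity. Adgre1 encodes F4/80, a macrophage marker, and Vegfa encodes an angiogenic growth factor that is also a HIF target. In obese adipose tissue, hypoxia, macrophage entry and leptin have often been discussed together.

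HIF binds the core letters ACGTG or GCGTG, and the 250 bases before the transcription start of each gene were searched for these letters on both strands. RefSeq gave 13 such windows for the 10 genes (build GRCm38.p6), and 12 of the 13 windows held the letters at least once, so that each of the 10 genes had a match in at least 1 window. The same letters stood in 38.6% of all 32851 RefSeq windows of this length and in 51.87% of the 16105 windows of genes past the count filter. The 6 windows below, 1 per gene, are from the genes whose relations are described most closely. Matches are in capitals, a match on the opposite strand reads CACGT or CACGC, and the palindrome CACGTG is a match on both strands.

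Ldha, chr7:46845554-46845803, + strand: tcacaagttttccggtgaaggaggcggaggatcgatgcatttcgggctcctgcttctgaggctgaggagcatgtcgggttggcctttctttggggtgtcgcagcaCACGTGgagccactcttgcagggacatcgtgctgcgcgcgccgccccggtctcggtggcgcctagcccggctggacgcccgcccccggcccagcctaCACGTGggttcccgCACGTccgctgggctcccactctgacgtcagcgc
Bnip3, chr7:138909507-138909756, - strand: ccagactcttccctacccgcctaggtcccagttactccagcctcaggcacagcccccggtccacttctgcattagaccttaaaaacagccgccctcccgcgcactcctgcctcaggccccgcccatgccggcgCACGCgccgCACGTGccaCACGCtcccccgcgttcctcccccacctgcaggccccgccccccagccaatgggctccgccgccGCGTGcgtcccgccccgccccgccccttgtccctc
Pdk1, chr2:71872974-71873223, + strand: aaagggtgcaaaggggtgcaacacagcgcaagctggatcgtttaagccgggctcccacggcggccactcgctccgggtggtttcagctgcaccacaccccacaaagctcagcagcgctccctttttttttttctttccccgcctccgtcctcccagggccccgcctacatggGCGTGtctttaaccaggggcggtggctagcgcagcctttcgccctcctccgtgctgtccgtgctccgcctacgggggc
Egln3, chr12:54203875-54204124, - strand: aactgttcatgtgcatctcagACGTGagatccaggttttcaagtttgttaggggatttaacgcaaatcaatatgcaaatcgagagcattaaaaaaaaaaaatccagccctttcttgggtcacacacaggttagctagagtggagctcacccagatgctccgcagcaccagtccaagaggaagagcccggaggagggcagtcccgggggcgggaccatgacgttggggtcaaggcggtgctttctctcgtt
Hif1a, chr12:73907617-73907866, + strand: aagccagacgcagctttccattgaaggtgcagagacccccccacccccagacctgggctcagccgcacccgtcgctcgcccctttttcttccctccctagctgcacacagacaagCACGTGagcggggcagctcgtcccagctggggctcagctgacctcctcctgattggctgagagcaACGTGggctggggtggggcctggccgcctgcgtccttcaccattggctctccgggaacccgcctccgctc
Pgk1, chrX:106186850-106187099, + strand: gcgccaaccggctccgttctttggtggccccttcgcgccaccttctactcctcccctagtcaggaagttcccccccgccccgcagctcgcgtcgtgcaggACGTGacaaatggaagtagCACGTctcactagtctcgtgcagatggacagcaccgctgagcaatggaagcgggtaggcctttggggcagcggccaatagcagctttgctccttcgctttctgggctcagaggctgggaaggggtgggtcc

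The printed windows of Ldha and Bnip3 each held 5 matches, counting both strands of each palindrome, and that of Hif1a held 3. Those of Ldha and Hif1a lie inside the gene intervals given below, downstream of the interval start. That of Pgk1 held 2. Pdk1 and Egln3, one of the closest pairs among the 10 transcripts, had 1 match each, which began at positions -78 and -229 from the start. A second RefSeq window of Ldha, not printed, held only 1 match, and a second window of Pdk1 held none. These letters are a description of the sequence and say nothing of whether a factor was bound.

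Levels were compared as CPM, the deposited expected counts per 1e+06 of the library total after scaling with TMM factors. Hif1a (chr12:73901375-73947530, + strand, GRCm38) had a mean of 118.97 ± 37.1 CPM (SD over all libraries, 1 per mouse), with 59.6 CPM in the lowest library, a median of 109.7 and 291.7 in the highest. Egln3 (chr12:54178981-54203860, - strand) was far scarcer at 9.90 ± 7.10 CPM, from 1.56 through a median of 7.61 to 45.6. Its 95th percentile was 8.25 times its 5th percentile, the widest range among the 10 genes, whereas Hif1a spanned 2.50-fold over the same percentiles.

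Slc2a1 (chr4:119108711-119137983, + strand) was also scarce at 12.3 ± 4.03 CPM, with a lowest value of 4.88, a median of 11.7 and a highest of 58.6. The highest value came from mouse DO283 and stood apart from the next highest, 28.1 CPM. Hk2 (chr6:82725025-82774454, - strand) had 136.04 ± 97.2 CPM, from 35.4 through 100.3 to 995 in mouse DO222. Its distribution had a long upper tail. Pfkfb3 (chr2:11471433-11554077, - strand), the most abundant of the 10 genes before correction for length, had 661.9 ± 241.8 CPM, from 115.1 through 658.4 to 1459.5. Pfkp (chr13:6579768-6648777, - strand) had 107.95 ± 31.6 CPM, from 46.9 through 101.9 to 335.2, and its exons overlap those of Pitrm1.

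Pgk1 (chrX:106187100-106203699, + strand) had 109.4 ± 55.8 CPM, from 22.4 through 100.2 to 404.5. Ldha (chr7:46841475-46855627, + strand) had 610.1 ± 165.1 CPM, from 244.4 through 580.2 to 1545, and its 95th percentile was only 2.23 times its 5th. Pdk1 (chr2:71873224-71903858, + strand) had 64.5 ± 44.4 CPM, from 9.88 through 45.9 to 305.2, a 6.52-fold range between these percentiles. Bnip3 (chr7:138890836-138909519, - strand) had 345.3 ± 102.3 CPM, from 109.3 through 345.3 to 1015. Exonic overlaps with other annotated genes were found for Hif1a (Gm15283 and Gm49321), Slc2a1 (Gm12868) and Bnip3 (Gm45507), and reads from the overlaps cannot be assigned with certainty.

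On the scale of log2 CPM, the spread between mice was largest for Egln3 (SD 0.947), Pdk1 (0.846), Hk2 (0.754) and Pgk1 (0.702), and smallest for Ldha (0.359), Pfkp (0.375), Slc2a1 (0.397) and Hif1a (0.416). Bnip3 (0.451) and Pfkfb3 (0.581) lay between. The median SD was 0.457 over all 18380 genes and 0.269 over the 9508 genes whose mean reached 10 CPM. Among those 9508 genes, the SD of Pdk1 exceeded 94.3% of the values and that of Ldha 66.3%. Per kilobase of exon, the order of mean levels was Ldha (184.3 CPM per kb), Bnip3 (152.4), Pfkfb3 (87.5), Pgk1 (48.8), Hk2 (22.8), Hif1a (20.2), Pdk1 (8.29), Pfkp (8.06), Egln3 (3.72) and Slc2a1 (3.52). This order did not hold in most mice at 3 of its steps, since Hk2 was above Hif1a in 41.9% of the libraries, Pdk1 above Pfkp in 39.7% and Egln3 above Slc2a1 in 42.7%.

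**Figure D1:**
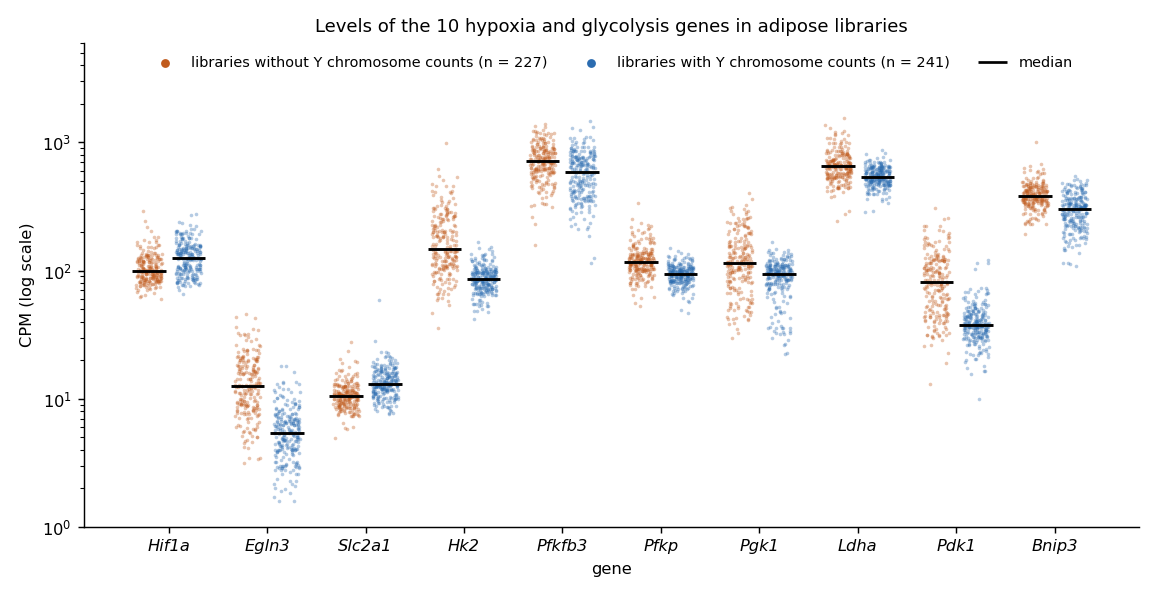
CPM on a log axis of each of the 10 genes, with 1 point per library, split into libraries without (48.5% of all) and with (51.5%) counts on the Y chromosome, and a black line at each median. The median of Pdk1 was 80.8 CPM without and 37.2 CPM with Y chromosome counts, and that of Hif1a 99.1 and 126.2 CPM.

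The total of expected counts was 35.3 M in the shallowest library, 82.04 M at the median and 137.8 M in the deepest, and the scarcest of the 10 genes, Egln3, was still counted in every library. Counts of genes on the Y chromosome were present in 51.5% of the libraries and absent from 48.5%. All relations below were fitted with a Y chromosome score and Xist as covariates and then examined within both clusters. The clusters without and with these counts match, in number, the females and males that the study reports for adipose tissue. Across these clusters the medians of the 10 genes differed most for Egln3 (12.5 CPM without and 5.41 with Y chromosome counts), Pdk1 and Hk2 (147.98 and 85.97 CPM), while Hif1a and Slc2a1 (10.5 and 13.01 CPM) had the higher median in libraries with Y chromosome counts. Lep had medians of 506.3 and 1990.5 CPM. In 52 libraries the skeletal muscle markers scored high, and 51 of the 52 lacked Y chromosome counts. In those 52 libraries the median of Pdk1 was 95.1 CPM against 43.6 in the others, that of Egln3 15.6 against 6.995, and that of Hk2 177.6 against 97.3. As 51 of the 52 lacked Y chromosome counts, these contrasts overlap with those between the clusters. Over all libraries without Y chromosome counts the medians were 80.8 CPM for Pdk1, 12.5 for Egln3 and 147.98 for Hk2. Adipocyte markers such as Adipoq (lowest library 499.6 CPM) and Fabp4 (3818 CPM) were high in every library.

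Reads of Pgk1 are shared with processed pseudogenes, which limits what its counts mean. Pgk1-rs7 (chr12:10898986-10900240) and Gm5537 (chr3:58102996-58104247) matched Pgk1 transcripts at 100% identity over 1255 and 1252 bases. Pgk1-rs7 was counted at 32.7 ± 52.6 CPM and Gm5537 at 31.6 ± 19.002 CPM (SD). Across mice, Pgk1-rs7 was the gene with the most negative correlation with Pgk1 (r = -0.625 after removal of the covariates). Pgk1 took a median of 74.6% of the summed reads of the 3 genes, but under 50% of them in 27.6% of the libraries and 20.5% in the lowest. Summing the 3 genes, an alternative chosen after seeing the data, lowered the SD of log2 CPM from 0.702 to 0.526 and raised the correlation with Ldha from 0.426 to 0.711, with Hk2 from 0.428 to 0.749 and with Aldoa, the muscle-type aldolase of the same pathway, from 0.475 to 0.824. With Pfkp the correlation went from 0.381 to 0.644, with Pdk1 from 0.334 to 0.623 and with Egln3 from 0.281 to 0.497. The sum correlated with Lep at -0.330 (Pgk1 alone -0.177), with Adgre1 at -0.266 (-0.143) and with Vegfa at 0.321 (0.159), while its edgeR slopes of -0.17 ± 0.021, -0.13 ± 0.020 and 0.15 ± 0.019 were close to those of Pgk1 alone. Values of Pgk1 below are for Pgk1 as counted and are uncertain.

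**Figure D2:**
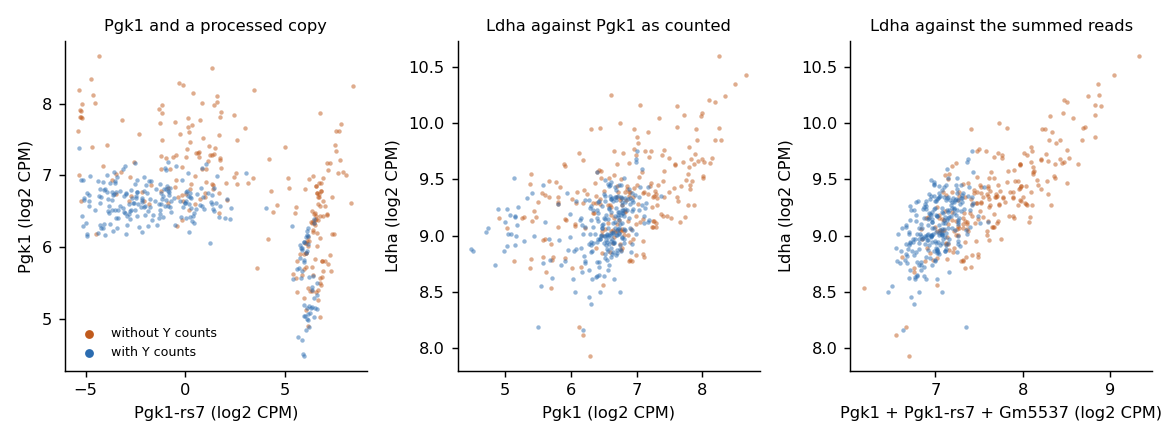
Log2 CPM of Pgk1 against its processed copy Pgk1-rs7 (left), of Ldha against Pgk1 as counted (middle), and of Ldha against the summed reads of Pgk1, Pgk1-rs7 and Gm5537 (right), with 1 point per library coloured by the presence of Y chromosome counts. Low Pgk1 values are found where Pgk1-rs7 is high, and the scatter of Ldha is narrower against the sum (r = 0.711) than against Pgk1 (r = 0.426).

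Which of the 10 genes moved with leptin expression was asked first. Hif1a rose with Lep, whereas its target Egln3 and Pdk1 fell, and these were the only members with slopes of at least 0.2 in size. The slope is the change in log2 expression per SD of log2 CPM of Lep, from edgeR's quasi-likelihood test over all 18380 genes with Benjamini-Hochberg adjustment (adjusted p). Hif1a rose by 0.29 ± 0.016 per SD (SE, all libraries, adjusted p = 5.6e-54), and its correlation with Lep after removal of the covariates (r = 0.661, rho = 0.726) was higher than that of 98.4% of the other genes. Egln3 fell by 0.52 ± 0.030 (adjusted p = 6.1e-51, r = -0.630, rho = -0.632) and Pdk1 by 0.50 ± 0.028 (adjusted p = 8.5e-54, r = -0.626, rho = -0.641). Only 1.62% and 1.70% of the other genes had a lower r with Lep than these 2. Each of these correlations had a two-sided permutation p of 1e-05, the smallest that 100000 resamples can give. In all, 30 relations were computed, and the permutation p-values are not adjusted for that number.

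The other members moved less with Lep. Pgk1 (-0.16 ± 0.034), Hk2 (-0.14 ± 0.034), Bnip3 (-0.13 ± 0.019) and Slc2a1 (-0.063 ± 0.018) also fell, with adjusted p-values from 1.7e-10 to 0.00087. Pfkfb3 rose by 0.064 ± 0.028 (adjusted p = 0.032, edgeR), a call lost without the 52 libraries with a high muscle score (0.059, adjusted p = 0.065). Ldha (-0.029 ± 0.017, adjusted p = 0.13, edgeR) and Pfkp (0.020 ± 0.018, adjusted p = 0.32) did not pass the test. The call of Slc2a1 was lost without the 47 libraries with the lowest totals (-0.038, adjusted p = 0.054, edgeR). In all, 2 of the 10 members rose with Lep and 6 fell, where 33.6% of all genes tested rose and 40.5% fell. With a slope of at least 0.2 in size, 1 rose and 2 fell, against 11.3% and 12.1% of all genes. The median slope was -0.096 over the members and -0.015 over all genes.

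With Adgre1, Hif1a again rose and most of the other members fell. Hif1a rose by 0.20 ± 0.020 per SD of Adgre1 (adjusted p = 9.6e-22, edgeR, r = 0.432, rho = 0.475). Pdk1 fell by 0.36 ± 0.029 (r = -0.493, rho = -0.512), Egln3 by 0.32 ± 0.033 (r = -0.439, rho = -0.469), Hk2 by 0.27 ± 0.030 (r = -0.366, rho = -0.379) and Bnip3 by 0.21 ± 0.019 (r = -0.447, rho = -0.419), all with adjusted p-values of 2.3e-17 or lower (edgeR) and permutation p-values of 1e-05. Pgk1 fell by 0.13 ± 0.033 (adjusted p = 0.00021, edgeR). Ldha fell by 0.038 ± 0.017 (adjusted p = 0.039, edgeR), a call that was lost in DESeq2 (-0.035, adjusted p = 0.055) and in limma on log2 CPM (-0.028, adjusted p = 0.13). Slc2a1 (-0.023 ± 0.019), Pfkfb3 (-0.053 ± 0.029) and Pfkp (-0.008 ± 0.017) did not pass. Thus 1 member rose and 6 fell, beside 31.4% and 43.5% of all genes, and with a slope of at least 0.2 in size 1 rose and 4 fell, beside 12.4% and 12.4%. Hif1a and Bnip3 stood close to that size. Hif1a was under it in limma on log2 CPM (0.190) and on VST values (0.191), without the 47 libraries with the lowest totals (0.192) and without the 24 libraries with the largest share of counts in 1 ribosomal gene (0.191), and in libraries without Y chromosome counts (0.102). Bnip3 was under it in limma on VST values (-0.196), without the same 24 libraries (-0.191) and in libraries without Y chromosome counts (-0.051). The median slope was -0.090 over the members and -0.023 over all genes. Because Adgre1 marks macrophages, in bulk tissue more macrophages and more Adgre1 RNA per macrophage cannot be told apart, nor can fewer adipocytes and less RNA per adipocyte.

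For Hif1a, Egln3, Pdk1, Bnip3, Hk2 and Pgk1 the slopes on Vegfa had the opposite sign to those on Lep and Adgre1, with which Vegfa itself was negatively correlated (r = -0.526 and -0.612, against 0.467 between Lep and Adgre1). Over all libraries, Bnip3 correlated most closely with Vegfa among the 10 genes, but not in the libraries without Y chromosome counts. It rose by 0.25 ± 0.015 per SD of Vegfa (adjusted p = 2.4e-46, edgeR, r = 0.607, rho = 0.583), and its r was higher than that of 98.7% of the other genes. Pdk1 rose by 0.37 ± 0.027 (r = 0.524, rho = 0.537), Egln3 by 0.28 ± 0.033 (r = 0.355, rho = 0.386) and Hk2 by 0.24 ± 0.029 (r = 0.347, rho = 0.314), with adjusted p-values of 1.4e-15 or lower (edgeR). Pgk1 (0.145 ± 0.031) and Ldha (0.062 ± 0.016, adjusted p = 0.00018, edgeR) rose less. Hif1a fell by 0.22 ± 0.016 (adjusted p = 1.1e-35, edgeR, r = -0.533, rho = -0.555). Slc2a1 (-0.027 ± 0.017), Pfkfb3 (0.039 ± 0.028) and Pfkp (0.032 ± 0.016, adjusted p = 0.066, edgeR) did not pass. These are 6 members that rose and 1 that fell, beside 35.9% and 36.7% of all genes. With a slope of at least 0.2 in size, 4 rose and 1 fell, beside 7.49% and 12.9% of all genes. The 3 analyses share the same libraries and correlated predictors, so they do not count as separate evidence.

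Lep, Adgre1 and Vegfa were then put into 1 model, so that each slope holds the other 2 transcripts fixed. With Lep, Egln3 still fell by 0.48 ± 0.035 and Pdk1 by 0.355 ± 0.031, and Hif1a rose by 0.22 ± 0.018. Pfkfb3 (0.14 ± 0.034) and Pfkp (0.053 ± 0.022) also rose, and Slc2a1 (-0.099 ± 0.021) and Pgk1 (-0.097 ± 0.041) fell, so that 3 members rose and 4 fell beside 28.4% and 37.2% of all genes. With Adgre1, Hif1a no longer passed (0.021 ± 0.020, adjusted p = 0.36, edgeR), while Hk2 (-0.19 ± 0.038), Egln3 (-0.17 ± 0.038), Pdk1 (-0.13 ± 0.033) and Bnip3 (-0.064 ± 0.022) fell. None of the 10 rose and 4 fell in edgeR, beside 23% and 37.5% of all genes, and the 5 members with an unadjusted p under 0.05 all had negative slopes. With Vegfa, Bnip3 rose by 0.23 ± 0.021, close to its slope without the other 2 transcripts, and Hk2 (0.15 ± 0.039), Pdk1 (0.12 ± 0.032), Ldha (0.071 ± 0.022) and Pfkp (0.064 ± 0.022) rose less. Hif1a (-0.11 ± 0.019) and Slc2a1 (-0.095 ± 0.022) fell, and Egln3 (-0.058 ± 0.037, adjusted p = 0.18, edgeR) did not pass. Here 5 members rose and 2 fell, beside 23.1% and 29% of all genes.

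**Figure D3:**
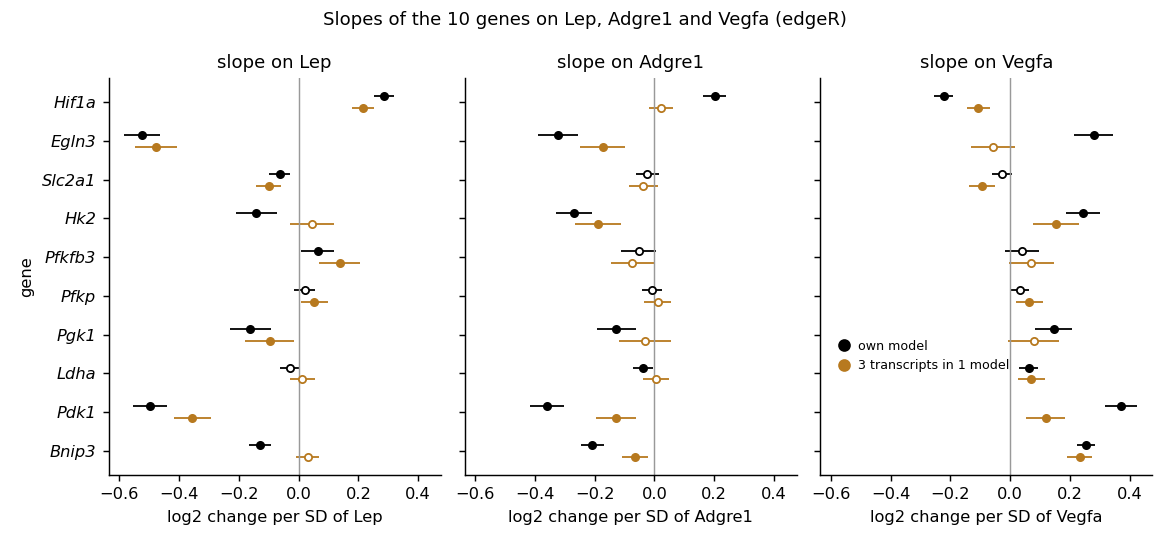
Slope of each of the 10 genes in log2 units per SD of Lep (left), Adgre1 (middle) and Vegfa (right), from a model with that transcript alone (black) or with all 3 transcripts (brown). Bars are 2 SE on each side over all libraries, and filled points have an adjusted p under 0.05. Hif1a lies on the opposite side of 0 from Pdk1 in each panel for the model of 1 transcript.

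Within the clusters, the relations of Hif1a, Pdk1, Egln3 and Bnip3 to Lep and Adgre1 kept their direction. Hif1a correlated with Lep at r = 0.605 (rho = 0.680) in the libraries without and r = 0.773 (rho = 0.826) in the libraries with Y chromosome counts. For Pdk1 the values were -0.654 and -0.597, and for Egln3 -0.749 and -0.464, each with a permutation p of 1e-05. Bnip3 and Vegfa correlated at 0.410 and 0.702.

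Relations of the glycolytic enzymes, and that of Egln3 to Vegfa, differed between the clusters. Pfkp correlated with Vegfa at r = 0.393 (rho = 0.386) without and r = -0.359 (rho = -0.378) with Y chromosome counts, each with a permutation p of 1e-05, where the pooled r was 0.048. Ldha showed r = 0.435 (permutation p = 1e-05) without and r = -0.160 (permutation p = 0.0135) with Y chromosome counts. For Hk2 the values were 0.562 (permutation p = 1e-05) and 0.088 (permutation p = 0.173), for Pgk1 0.404 and -0.087, and for Egln3 0.687 and 0.086. With Lep, Ldha went from r = -0.219 (permutation p = 0.00088) to 0.396 (permutation p = 1e-05) and Pfkp from -0.038 to 0.451. With Adgre1, Pfkp went from -0.280 to 0.353, Ldha from -0.337 to 0.229, and Slc2a1 from 0.182 to -0.163. The slopes differed between clusters for all 10 members with Lep, all 10 with Adgre1 and 8 of 10 with Vegfa (edgeR interaction test, adjusted p under 0.05), where 41%, 50% and 52.7% of all genes did so.

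**Figure D4:**
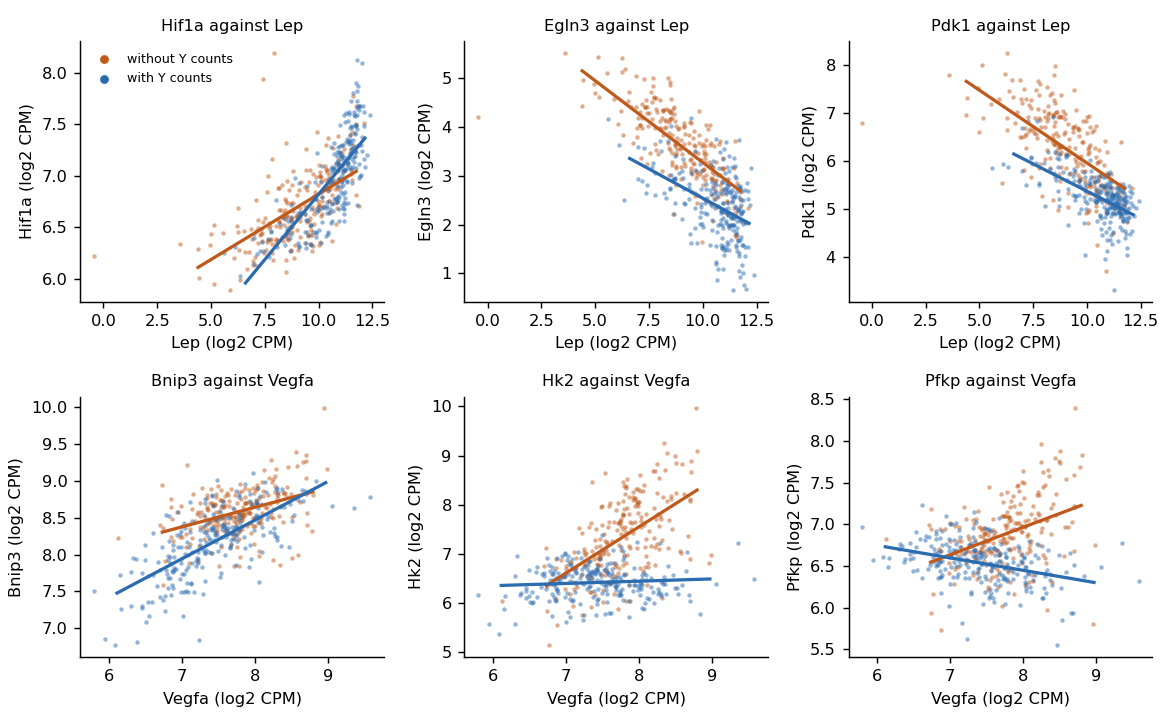
Log2 CPM of Hif1a, Egln3 and Pdk1 against Lep (top) and of Bnip3, Hk2 and Pfkp against Vegfa (bottom), as counted (no covariate removed), with 1 point per library and a least-squares line for libraries without (orange) and with (blue) Y chromosome counts. The lines share their direction in the top row and for Bnip3, whereas for Pfkp they cross (r = 0.393 without and -0.359 with Y chromosome counts). The single library at the far left of the top row is mouse DO349, with 0.716 CPM of Lep.

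Co-variation among the 10 genes was mixed in sign and size. Over the 45 pairs, the median r after removal of the covariates was 0.158 (range -0.436 to 0.664), with 31 positive and 14 negative values, where the median over all pairs of the 18380 genes was -0.002, the 5th percentile -0.308 and the 95th 0.327. With Pgk1 as counted, the closest pair was Ldha and Pfkp (r = 0.664, rho = 0.597), followed by Ldha and Hk2 (0.593), Pdk1 and Egln3 (0.589), Pfkp and Hk2 (0.575), and Pdk1 and Hk2 (0.560). With the summed Pgk1 reads this order changed, since the sum correlated with Hk2 at 0.749 and with Ldha at 0.711, above any of these. The 10 pairs among the enzymes Hk2, Pfkfb3, Pfkp, Pgk1 and Ldha were all positive, with a median r of 0.417. Hif1a had 4 positive and 5 negative correlations with the other members. Its r was 0.290 with Pfkp, 0.180 with Pfkfb3 and 0.173 with Ldha, but -0.436 with Pdk1, -0.396 with Egln3 and -0.376 with Bnip3, with values close to 0 for Pgk1 (0.006) and Hk2 (-0.030). Slc2a1 was negative with each of the other 9 members (-0.257 to -0.012).

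These pairs also depended on the cluster. Pfkp and Hk2 correlated at 0.725 in libraries without and 0.073 in libraries with Y chromosome counts, Pdk1 and Ldha at 0.584 and -0.105, Ldha and Egln3 at 0.483 and -0.211, and Hif1a and Ldha at -0.067 and 0.511. Ldha and Pfkp held in both (0.690 and 0.616), as did the negative relation of Hif1a and Pdk1 (-0.505 and -0.446). In all, 16 of the 45 pairs had opposite signs in the clusters, but none of the 10 pairs among the 5 glycolytic enzymes did (median r 0.482 without and 0.262 with Y chromosome counts). The share of all gene pairs with opposite signs was not computed, so these counts have no background. Some of the 16 had an r near 0 in 1 cluster, such as Pdk1 and Pgk1 (0.47 without and -0.008 with Y chromosome counts). Some libraries were among the highest of several members, ranked by CPM with no covariate removed. Thus 28 libraries were among the highest 24 of at least 3 members, 11 among the highest 24 of at least 5, and mice DO149, DO237 and DO330 of 6. Ranks were not taken within the clusters, between which the medians of these genes differed, and no expected number of shared libraries was computed. DO237 held the highest values of Ldha, Pdk1 and Pfkp, and its muscle score was -0.71.

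**Figure D5:**
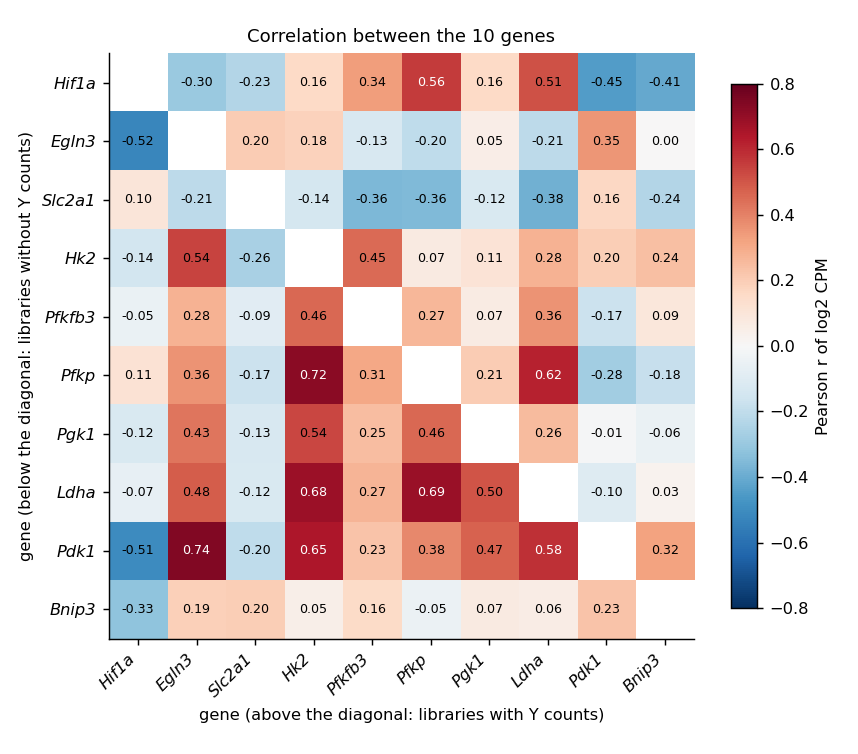
Pearson r between the log2 CPM of each pair of the 10 genes after removal of mouse number and library number, below the diagonal in the libraries without and above it in the libraries with Y chromosome counts. Red is positive and blue negative. The pair Pfkp and Hk2 has r = 0.725 below and 0.073 above the diagonal, and Ldha and Pfkp 0.690 and 0.616.

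The genes whose log2 CPM followed each member most closely were sought among genes whose mean reached 10 CPM. Ldha was followed by Aldoa (r = 0.814) and by Pgd (0.795), an enzyme of the pentose phosphate pathway, and the same 2 genes led for Pfkp (Pgd 0.711, Aldoa 0.703). Pdk1 was followed by Pdha1 (0.812), which encodes the subunit of pyruvate dehydrogenase that Pdk1 phosphorylates, and by Ddhd2 (0.780). Bnip3 was followed by Pde3b (0.762) and Pnpla2 (0.731), which encode the insulin-responsive phosphodiesterase and the triglyceride lipase of adipocytes. For Hif1a the closest genes were Calu (0.767) and Lpgat1 (0.757), and Phf1 was the most negative (-0.781). Hk2 was followed by Taco1 (0.802) and Ppp1r3b (0.792), a regulator of glycogen metabolism, with 0.879 and 0.878 without but 0.376 and 0.272 with Y chromosome counts. Pfkfb3 was followed by Tmem120a (0.607) and Cebpa (0.603), the latter a transcription factor of adipocyte differentiation, Slc2a1 by Cyb561 (0.514), Egln3 by Nadk2 (0.686) and Cmtm4 (0.684), and Pgk1 by Hadha (0.566) and Sod2 (0.557). The most negative genes of the others were Fam114a1 for Pdk1 (-0.714), Tpm4 for Egln3 (-0.726), Cdc42se1 for Bnip3 (-0.679), Gabbr1 for Ldha (-0.639), Atp8b2 for Hk2 (-0.637), Ldb1 for Pfkp (-0.588), B4galt1 for Pfkfb3 (-0.503) and Rcbtb2 for Slc2a1 (-0.446).

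Of the pathway genes around the members, the regulators of HIF are described first. Among the 10 genes of oxygen sensing and HIF regulation, all past the filter, 1 rose and 8 fell with Lep, with a median slope of -0.114, where 33.6% of all genes rose and 40.5% fell. Vhl, which encodes the ubiquitin ligase subunit that binds hydroxylated HIF, rose by 0.28 ± 0.014 (adjusted p = 1.8e-61, edgeR). Arnt2, a partner subunit of HIF, fell by 0.365 ± 0.087, and Cited2, which competes with HIF for its coactivator, by 0.16 ± 0.027. With Adgre1, 1 rose and 7 fell, led by Egln1 (-0.20 ± 0.020), the main oxygen-sensing hydroxylase, Hif3a (-0.19 ± 0.051) and Epas1 (-0.15 ± 0.012), which encodes HIF-2 alpha. Vhl was the 1 gene that rose with Adgre1 (0.14 ± 0.020). With Vegfa, 7 rose and 1 fell, again Vhl (-0.16 ± 0.017). Over all genes 31.4% rose and 43.5% fell with Adgre1, and 35.9% rose and 36.7% fell with Vegfa.

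Other HIF target genes did not share 1 direction. Of 22 such genes, 9 rose and 10 fell with Lep, and 7 rose and 9 fell with Adgre1. Over all genes 33.6% rose and 40.5% fell with Lep, and 31.4% and 43.5% with Adgre1, so these shares were near the background. Loxl2 (0.42 ± 0.024 with Lep) and Lox (0.39 ± 0.025 with Adgre1), which encode enzymes that cross-link collagen, rose, as did Rcor2 (0.36 ± 0.030 with Lep). Vegfa fell by 0.39 ± 0.024 with Adgre1. The median slopes of this list were -0.029 and -0.027, near those over all genes.

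Glycolysis and lactate genes other than the members were also counted. Of 21 genes, 4 rose and 14 fell with Lep (median slope -0.178), and 5 rose and 15 fell with Adgre1 (median slope -0.115), while 14 rose and 5 fell with Vegfa (median slope 0.148). Over all genes, 40.5% fell with Lep (median slope -0.015), 43.5% fell with Adgre1 (-0.023) and 35.9% rose with Vegfa (-0.002). Hk3, Pfkfb4, Tpi1 (0.20 ± 0.016) and Eno2 (0.074 ± 0.032) were those that rose with Lep. The same 4 genes and Slc16a3 (0.11 ± 0.039), a lactate exporter, rose with Adgre1 and fell with Vegfa. Hk3, a hexokinase found mainly in myeloid cells, rose by 0.54 ± 0.049 with Lep and by 1.01 ± 0.032 with Adgre1 (adjusted p = 1.8e-115, edgeR). Pfkfb4, a sister enzyme of Pfkfb3, rose by 0.38 ± 0.024 and 0.39 ± 0.023. Slc2a3, a glucose transporter, fell by 0.49 ± 0.043 and 0.41 ± 0.040.

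Most genes of pyruvate dehydrogenase and its regulators had slopes of the same sign as Pdk1 on each of the 3 transcripts. Of 12 genes, 10 fell and 1 rose with Lep (median slope -0.354), 10 fell and 1 rose with Adgre1 (-0.287), and 10 rose and 2 fell with Vegfa (0.315), against medians of -0.015, -0.023 and -0.002 over all genes, of which 40.5% fell with Lep, 43.5% fell with Adgre1 and 35.9% rose with Vegfa. Pdk2, another inhibitory kinase, fell by 0.55 ± 0.019 with Lep and 0.40 ± 0.024 with Adgre1, and Pdha1, the subunit that the kinases inhibit, by 0.43 ± 0.026 and 0.34 ± 0.025. Pdk4 fell by 0.50 ± 0.047 with Lep and Mpc1, a subunit of the mitochondrial pyruvate carrier, by 0.35 ± 0.027 with Adgre1. Pdk3 rose with Lep by 0.14 ± 0.024, and Pdp1, a phosphatase that reactivates the enzyme, rose with Adgre1 by 0.051 ± 0.012. These were also the 2 that fell with Vegfa (-0.087 ± 0.022 and -0.041 ± 0.011).

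Markers of cell types moved with these results. The brown and beige adipocyte score (10 genes, summed level 174.9 to 10013 CPM) correlated with Hk2 at r = 0.706, with Pdk1 at 0.604, Egln3 at 0.543, Ldha at 0.535, Pfkp at 0.522 and Pgk1 at 0.521, and with Lep at -0.396. Its correlation with Hk2 was 0.782 in libraries without and 0.224 in libraries with Y chromosome counts, and with Vegfa 0.697 and -0.161. In the same order it was 0.72 and 0.11 with Pdk1, 0.721 and 0.183 with Egln3, and -0.511 and -0.067 with Lep. For Ldha (0.575 and 0.377), Pfkp (0.581 and 0.309) and Pgk1 (0.613 and 0.266) it was also lower with Y chromosome counts. The list shares Pdk4 with that of the pyruvate dehydrogenase regulators, and its defining marker Ucp1 had a median of 12.6 CPM and a highest value of 4514 CPM. The share of counts from mitochondrial genes correlated with Hk2 at 0.692, with Pdk1 at 0.687 and with Egln3 at 0.620. The macrophage score (12 genes, 409.6 to 6779 CPM) correlated with Pdk1 at -0.559, Egln3 at -0.524, Hk2 at -0.436 and Hif1a at 0.455. These kept their sign in both clusters, whereas Ldha (-0.42 without and 0.218 with Y chromosome counts) and Pfkp (-0.354 and 0.335) did not. The adipocyte progenitor score correlated with Hk2 at -0.55, Pdk1 at -0.409, Ldha at -0.392 and Adgre1 at 0.459. The adipocyte score (10 genes, 12846 to 56683 CPM) correlated with Bnip3 at 0.678 and Pfkfb3 at 0.453, and with Lep at -0.024. Correlations of the skeletal muscle score with the 10 genes did not exceed 0.155 in size over all libraries after removal of the covariates. Nearly all libraries with a high muscle score lacked Y chromosome counts, so removing the Y chromosome score and Xist can also remove muscle differences. With Y chromosome counts the values were larger for Egln3 (0.255), Pfkfb3 (-0.226) and Ldha (-0.211), and without them Egln3 had 0.159. The part of these cell types in the relations of the members to Lep, Adgre1 and Vegfa was not tested.

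With all covariates in the model, no member passed the test for mouse number or library number, which stand in for batches that the labels do not name. In edgeR, 0 of the 10 members were called with mouse number, beside 12.5% of all genes, and 0 with library number, beside 0.305%. At an unadjusted p under 0.05 there were 3 members each, and neither DESeq2 nor limma called any. Without the Y chromosome score and Xist in the model, 2 members were called with mouse number, Bnip3 (-0.041 per 100 mouse numbers, adjusted p = 0.013, edgeR) and Hif1a (0.033, adjusted p = 0.042). Within 5 blocks of consecutive mouse numbers, the correlation of Hif1a with Lep ran from 0.578 to 0.781, that of Egln3 from -0.743 to -0.511, that of Pdk1 from -0.688 to -0.581, and that of Bnip3 with Vegfa from 0.549 to 0.704. Over 5 blocks of library number the same 4 relations ran from 0.620 to 0.752, -0.734 to -0.535, -0.713 to -0.565, and 0.541 to 0.683. Slc2a1 and Lep ran from -0.278 to 0.092 over the blocks of library number. Without the 2 libraries farthest from the median of Lep, the r of Slc2a1 went from -0.106 to -0.058 (permutation p = 0.214). That of Hif1a was then 0.679, of Pdk1 -0.640 and of Egln3 -0.641. Fitted within the clusters, the edgeR slope of Slc2a1 on Lep was -0.013 ± 0.020 (adjusted p = 0.6) without Y chromosome counts. With Y chromosome counts it was -0.13 ± 0.023 (adjusted p = 1.8e-07, edgeR).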

How the data were processed

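Polyadenylated RNA from 468 adipose samples, 1 per DO mouse, was sequenced by the study. The authors quantified reads with EMASE, run through GBRS, against transcripts of the founder strains joined together, treating both read ends as single reads. The submitters' notes name build GRCm38. The tables used were, as deposited, expected counts per gene, which need not be whole (66.78% were within 1e-06 of a whole number), and log2-scale values from the variance-stabilising transformation (VST) of DESeq2, deposited by the authors and used here as an alternative.

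Expected counts were rounded and tested in edgeR 4.0.16 (R 4.3.3) with TMM factors (0.578 to 1.36) and the quasi-likelihood test, over the 18380 genes with 10 or more counts in 50% or more of the libraries. Covariates were a Y chromosome score (Ddx3y, Eif2s3y, Kdm5d and Uty), Xist, mouse number and library number. The standard error of a slope was taken as its size divided by the square root of F. A gene was called at an adjusted p under 0.05, Benjamini-Hochberg over all genes, and also with a slope of at least 0.2 in size. Levels are TMM-scaled CPM, and correlations used log2 CPM (prior count 2) with the covariates removed linearly and 100000 two-sided permutations. Within the clusters, only mouse number and library number were removed. The interaction test compared slopes between libraries with and without Y chromosome counts. Alternatives were DESeq2 1.42.0, limma 3.58.1, other scaling, no count filter, fewer or more covariates, and subsets of libraries. Scripts were tested on simulated data. Transcripts were compared with BLAST 2.17.0.

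The 10 genes and the pathway and marker lists were chosen with earlier results of these data known. Named list genes are the 3 of each pathway list with the largest slopes in size on Lep and on Adgre1 among those called, and every gene of a count of 5 or fewer. For each member the 2 genes with the highest and the 1 with the lowest r are named. Some genes that these rules name are not reported here. Pgk1 summed with its copies, and the interaction without libraries of high muscle score, were added after seeing the data. Each mouse gave 1 library, so n counts animals.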

Additional observations from a re-analysis of the deposited data

Results flagged for a closer look

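The slopes of the members differed between the libraries with and the libraries without Y chromosome counts in 28 of the 30 relations, by the interaction test of edgeR (adjusted p under 0.05 over all genes). Such differences were frequent across the transcriptome, where 41% of all genes were called for Lep, 50% for Adgre1 and 52.7% for Vegfa. Each difference below is the slope with minus the slope without Y chromosome counts, in log2 units per SD. All libraries were collected in 1 group and the labels name no sex. In number, the libraries without and with Y chromosome counts match the females and males that the study reports for adipose tissue. Of the 52 libraries with a high skeletal muscle score, 51 lacked Y chromosome counts. Without those 52 libraries, an alternative chosen after seeing the data, 26 of the 28 calls remained, and those of Hif1a (0.084, adjusted p = 0.098, edgeR) and Pfkfb3 (0.137, adjusted p = 0.061) for Adgre1 were lost.

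For Lep, Hif1a rose more steeply with than without Y chromosome counts (0.43 against 0.21, difference 0.22 ± 0.030, SE). The falls of Egln3 (difference 0.21 ± 0.064) and Pdk1 (0.15 ± 0.058) were shallower, while those of Bnip3 (-0.11 ± 0.041) and Slc2a1 (-0.16 ± 0.037) were steeper. Ldha went from -0.11 to 0.11 (difference 0.21 ± 0.035), Pfkp from -0.05 to 0.14 (0.19 ± 0.036) and Pfkfb3 from -0.02 to 0.24 (0.26 ± 0.058). The negative slopes of Pgk1 and Hk2 without Y chromosome counts were near 0 with them, with differences of 0.27 ± 0.070 and 0.23 ± 0.069.

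For Adgre1, the largest differences were those of Hk2 (-0.52 without and -0.11 with Y chromosome counts, difference 0.42 ± 0.056) and Pdk1 (-0.61 and -0.23, difference 0.38 ± 0.054). Pgk1 differed by 0.32 ± 0.064, Pfkp by 0.24 ± 0.034, Ldha by 0.23 ± 0.034, Egln3 by 0.18 ± 0.063, Pfkfb3 by 0.14 ± 0.060 and Hif1a by 0.09 ± 0.041. Bnip3 (-0.21 ± 0.039) and Slc2a1 (-0.17 ± 0.041) differed in the other direction.

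For Vegfa, slopes of 0.60 for Hk2, 0.63 for Egln3 and 0.42 for Pgk1 without Y chromosome counts compared with 0.02, 0.06 and -0.03 with them, differences of -0.58 ± 0.052, -0.57 ± 0.062 and -0.45 ± 0.060. Pdk1 went from 0.70 to 0.18 (-0.52 ± 0.051). Pfkp (-0.30 ± 0.030), Ldha (-0.25 ± 0.030) and Pfkfb3 (-0.18 ± 0.056) also had lower slopes with Y chromosome counts, and Bnip3 alone had a higher one (0.13 ± 0.031). For Hif1a (adjusted p = 0.53, edgeR) and Slc2a1 (adjusted p = 0.55) a difference was not called. The part of muscle, brown adipocytes or adiposity in these differences was not tested.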

How the results depend on the processing

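Alternatives gave 941 slopes of single genes, of which 880 kept their side of the threshold without a counted reversal and 21 reversed. Of 210 correlations, 18 reversed, 12 came past the threshold and 6 fell short of it. A change of sign was counted as a reversal only where the result or its alternative passed the threshold. Sign changes between results that both fell short, such as Egln3 on mouse number (0.034 to -0.043 without the Y chromosome score and Xist), are among the 880. The cause of the reversals was not tested. Counts of genes past the size rule on VST values were 2201 for Lep, 2228 for Adgre1 and 1742 for Vegfa, and 2110 for Vegfa with all 3 transcripts in 1 model. Mouse number gave 4364 genes without the Y chromosome score and Xist (2291 with them), and library number gave 0.0% of genes tested by limma on either scale, 0.569% without the count filter and 0.174% without the tenth of lowest total (0.305% otherwise). The median r over pairs was 0.232 with covariates left in, 0.197 without and 0.066 with Y chromosome counts. Without the Y chromosome score and Xist, slopes reversed for Slc2a1 (0.014), Pfkfb3 (-0.025) and Pfkp (-0.081) on Lep and Slc2a1 on Adgre1 (0.046). In libraries without Y chromosome counts they reversed for Pfkfb3 on Lep (-0.021) and for Slc2a1 (0.065) and Hif3a (0.143) on Adgre1. In libraries with Y chromosome counts they reversed for Ldha (0.096), Pgk1 (0.022) and Hk2 (0.007) on Lep, Ldha (0.066), Pgk1 (0.016) and Pfkp (0.097) on Adgre1, and Ldha (-0.049), Pgk1 (-0.037) and Pfkp (-0.098) on Vegfa. With all 3 transcripts in 1 model they reversed for Bnip3 (0.031) and Hk2 (0.045) on Lep, Ldha (0.005) on Adgre1, and Egln3 on Vegfa (-0.058). Vegfa itself on Adgre1 (0.000) is also counted among the 21. Its slope there was fixed near 0 in advance, because Vegfa is a predictor in that model, so it is no evidence of a changed relation. Correlations with covariates left in reversed for Slc2a1 (0.107), Pfkfb3 (-0.023) and Pfkp (-0.129) with Lep and for Slc2a1 (0.173) and Pfkp (-0.193) with Adgre1. Without Y chromosome counts they reversed for Slc2a1 (0.018), Pfkfb3 (-0.052) and Pfkp (-0.038) with Lep and Slc2a1 (0.182) and Pfkp (-0.280) with Adgre1. With Y chromosome counts they reversed for Ldha (0.396), Pgk1 (0.043) and Hk2 (0.017) with Lep, Ldha (0.229) and Pgk1 (0.027) with Adgre1, and Ldha (-0.160), Pgk1 (-0.087) and Pfkp (-0.359) with Vegfa. No paired analysis was possible because all libraries formed 1 group. Depth limits Egln3 and Slc2a1 most, the scarcest of the 10 genes.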
